A study of Mus musculus with 42 samples.

Results

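Granzyme K, the chemokine Ccl5 and 8 further genes of cytotoxic T cells were followed in macrophage RNA of young and aged mice through the day. The 10 genes are Gzmk, Gzma, Nkg7, Ccl5, Eomes, Cd8a, Cd8b1, Cd3d, Cd3e and Cd3g, out of 47643 genes in the deposited tables. They were taken by name, and all 10 were found by Ensembl identifier. They were selected on earlier results of these libraries, among them the higher level of Gzmk and Ccl5 in the aged, so their levels by age are given as a description and carry no test. The material is macrophages of C57BL/6 mice, young animals of 2 to 3 months and aged animals of 18 to 20 months, at zeitgeber times (ZT, hours after lights on) 0, 4, 8, 12, 16, 20 and 24. No allele, treatment or sex is given, and the labels name neither the site the macrophages came from nor how they were purified. Each of the 14 groups had 3 libraries made from the 3' ends of total RNA. The labels do not say that these came from separate animals, so the spread between libraries may be technical.

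Cytotoxic T cells recognise peptides on MHC class I through the T cell receptor and the CD8 coreceptor. The receptor signals through the CD3 chains, and target cells are killed with granule proteins, the perforin and the granzymes. Granzyme K marks memory-type CD8 T cells that also make Ccl5, and cells of this type are known to accumulate in tissues of old mice. The CD3 chains are defining markers of T cells and not of macrophages, whereas Ccl5 is also made by NK cells and macrophages.

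Libraries held 7433159 to 13574542 reads in young and 4864402 to 15587030 in aged samples. Levels below are rescaled reads, which are the whole reads of each library divided by 1 scaling factor per library that was estimated over all 42 libraries together. The macrophage genes Adgre1, Csf1r, Cd68, Itgam, Lyz2 and Mertk were above 0 in all 42 libraries, with Adgre1, which encodes F4/80, at means of 5845 and 6131 in young and aged samples. In bulk RNA of this kind, more cells of a type and more RNA per cell cannot be told apart. One library stood apart in the T cell genes. Aged ZT12 replicate 1 had the highest aged value of 8 of the 10 genes, while over all genes its distance from its group was rank 22 of the 42 libraries. Results that rest on it are given with and without it.

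Some of the genes are neighbours on the genome, with positions given here from GENCODE M21 (build GRCm38). Gzmk (ENSMUSG00000042385) is on the minus strand of chr13:113171608-113225908 and Gzma (ENSMUSG00000023132) on the minus strand of chr13:113093825-113100981, 70626 bases apart. Cd8b1 (ENSMUSG00000053044, plus strand, chr6:71322788-71337494) and Cd8a (ENSMUSG00000053977, plus strand, chr6:71373427-71379173) are 35932 bases apart. Cd3g (ENSMUSG00000002033, minus strand, chr9:44969572-44980431) and Cd3d (ENSMUSG00000032094, plus strand, chr9:44981786-44987339) are transcribed away from each other across 1354 bases. Cd3e (ENSMUSG00000032093, minus strand, chr9:44998740-45009627) follows 11400 bases further on. Eomes (ENSMUSG00000032446) is at chr9:118478212-118486132 on the plus strand, Nkg7 (ENSMUSG00000004612) at chr7:43437073-43438249 on the plus strand and Ccl5 (ENSMUSG00000035042) at chr11:83525778-83530518 on the minus strand. The Gzmk gene model overlaps Esm1 on the other strand, whose mean was 0.0423 in young and 2.83 in aged libraries. Strand use in the counting is not given in the sources used here, so reads of these 2 genes cannot be told apart with certainty.

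Promoter windows of RefSeq on GRCm38.p6 were found for 8 of the 10 genes and not for Ccl5 and Cd8b1. The windows of the neighbouring granzyme genes, whose values by age went opposite ways, and of the divergent pair of CD3 genes are shown from 250 bases before the start up to the start, 5′ to 3′ on the gene's strand. Capitals mark the core hexamer of T-box factors such as Eomes, AGGTGT or ACACCT on the other strand, and a RUNX core, TGTGGT or ACCACA. RefSeq starts Gzmk inside the longer GENCODE model, so its window is at chr13:113180966-113181215. The windows of Gzma, Cd3g and Cd3d are at chr13:113100982-113101231, chr9:44980432-44980681 and chr9:44981536-44981785.
Gzmk: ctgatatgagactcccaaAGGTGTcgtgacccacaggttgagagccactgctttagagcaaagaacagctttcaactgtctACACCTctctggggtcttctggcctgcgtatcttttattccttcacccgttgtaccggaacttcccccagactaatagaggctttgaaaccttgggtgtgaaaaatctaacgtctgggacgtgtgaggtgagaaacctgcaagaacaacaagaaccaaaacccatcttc
Gzma: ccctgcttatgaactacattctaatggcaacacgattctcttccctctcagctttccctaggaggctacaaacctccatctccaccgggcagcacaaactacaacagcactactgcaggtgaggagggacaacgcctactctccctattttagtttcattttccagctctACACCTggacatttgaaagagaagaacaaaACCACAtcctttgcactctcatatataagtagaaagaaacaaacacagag
Cd3g: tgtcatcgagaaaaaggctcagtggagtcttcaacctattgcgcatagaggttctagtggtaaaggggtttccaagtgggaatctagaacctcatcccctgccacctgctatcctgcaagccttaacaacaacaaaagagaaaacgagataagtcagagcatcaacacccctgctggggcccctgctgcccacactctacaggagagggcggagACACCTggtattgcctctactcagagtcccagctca
Cd3d: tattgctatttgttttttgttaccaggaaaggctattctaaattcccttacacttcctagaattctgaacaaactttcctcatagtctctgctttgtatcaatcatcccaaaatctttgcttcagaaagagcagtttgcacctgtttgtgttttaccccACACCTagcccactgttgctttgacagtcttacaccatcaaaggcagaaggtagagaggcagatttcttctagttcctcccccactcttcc
In windows that run a further 50 bases past the start, 300 bases in all, the T-box hexamer was present in 6 of the 8 (Gzmk, Gzma, Nkg7, Cd3d, Cd3e and Cd3g). It is present in 13.7% of the 32851 RefSeq windows of that length. The RUNX core was present in 2 of the 8 (Gzma and Nkg7), against 16.8% of all windows. The 2 motifs share no overlapping bases in the windows shown. These are matches of letters only, and neither the Eomes nor the Cd8a window held either hexamer.

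Gzmk, a trypsin-like protease of T cell granules, had few reads in young libraries and was present in every aged one. In the young it was at 0 in 13 of 21 libraries. A count of 0 allows up to 3 reads, which is 1.92 to 3.58 rescaled reads over all 21 young libraries. Its young values had a median of 0 and a highest value of 8.37, and 27 reads were counted in all 21 libraries together. In the aged the values ran from 4.78 over a median of 16.7 to 67.4, from 433 reads in total. The means were 1.26 ± 2.43 (SD, n = 21) and 21.3 ± 16.9 (SD, n = 21), a ratio of 16.9. Of the aged libraries 16 exceeded the highest young library. The 2 ages overlapped at ZT0 and ZT8 and were apart at ZT4, ZT12, ZT16, ZT20 and ZT24.

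By time, the 3 aged Gzmk values were 15.7, 5.45 and 14.6 at ZT0, 6.00, 21.9 and 32.1 at ZT4, and 6.47, 4.78 and 15.6 at ZT8. They were 16.9, 29.6 and 21.3 at ZT12, and 27.8, 5.76 and 9.47 at ZT16. At ZT20 they were 56.0, 17.7 and 11.9, and at ZT24 they were 16.7, 67.4 and 44.2. Ordered by mean, the aged groups ran from ZT24 (42.7 ± 25.4, SD, n = 3) through ZT20 (28.5 ± 23.9), ZT12 (22.6 ± 6.48), ZT4 (20.0 ± 13.2), ZT16 (14.3 ± 11.8) and ZT0 (11.9 ± 5.64) to ZT8 (8.93 ± 5.79). No pair of neighbours in that order differed by more than the larger of their SDs. ZT0 and ZT24 are the same hour of the day, and all 3 ZT24 libraries were nonetheless above all 3 ZT0 libraries. In the young the highest group mean of Gzmk was 2.79 ± 4.83 at ZT0, set by 1 library at 8.37 with the other two at 0, and all 3 ZT16 libraries were at 0.

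**Figure D1:**
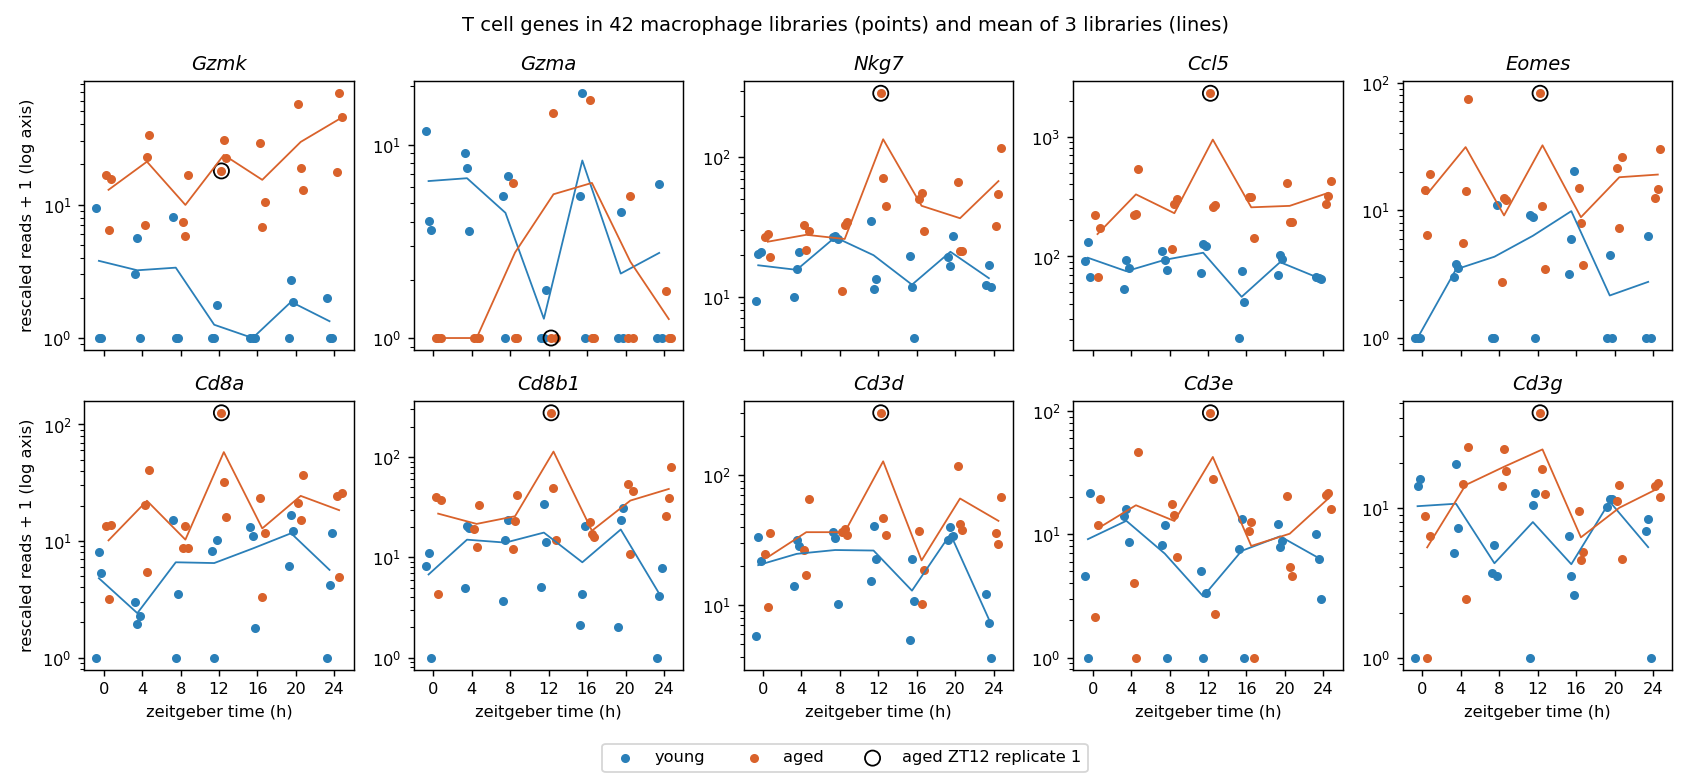
Rescaled reads + 1 (log axis) of the 10 genes against zeitgeber time in hours, with 1 point per library, young in blue and aged in orange, and lines through the means of 3 libraries. Aged Gzmk lies between 4.78 and 67.4 while 13 young libraries are at 0, and the ringed library, aged ZT12 replicate 1, tops every panel except those of Gzmk and Gzma.

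Gzma, the neighbouring granzyme gene, had few reads at either age and did not follow Gzmk. It was above 0 in 13 of 21 young and 5 of 21 aged libraries, from 81 and 41 reads in total. The young values had a median of 2.60 and a highest value of 17.4, and the aged a median of 0 and a highest value of 16.0. All 6 aged libraries of ZT0 and ZT4 were at 0, while the 6 young ones ran from 2.56 to 10.8, from 3 to 9 reads each. The means were 3.58 ± 4.44 and 1.91 ± 4.55 (SD, n = 21 each). On the scale log2(value + 1) used for all fitted differences below, aged minus young was -0.90 ± 0.41 (SE) for Gzma and 3.43 ± 0.38 (SE) for Gzmk. This scale understates changes of genes with few reads.

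Ccl5, a chemokine that draws T cells and monocytes, had the most reads of the 10 genes, 1911 in young and 7556 in aged libraries. Young libraries ran from 19.8 over a median of 76.2 to 132 rescaled reads, and aged ones from 66.5 over 271 to 2315. Of the 21 aged libraries 19 were above the highest young library, and only ZT0 showed overlap between the ages. Means were 81.2 ± 27.9 and 360.0 ± 461 (SD, n = 21 each). Without aged ZT12 replicate 1, whose value was 2315 against at most 543 elsewhere, the aged mean was 262 ± 111 (SD, n = 20). The ratio of means was 4.43 with that library and 3.23 without it, and the log2 difference 1.80 ± 0.20 (SE) and 1.65 ± 0.16 (SE).

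The 3 aged Ccl5 values were 220.2, 66.5 and 172 at ZT0, 221, 225 and 543 at ZT4 and 115, 273 and 299 at ZT8. At ZT12 they were 2315, 258 and 271, and at ZT16 they were 316, 311 and 143. They were 407, 192 and 193 at ZT20 and 275, 319 and 423 at ZT24. The young means by time ran from 45.0 ± 27.7 at ZT16 to 106 ± 30.3 at ZT12 (SD, n = 3). In order they were ZT16, ZT24 (65.2 ± 1.17), ZT4 (74.3 ± 20.4), ZT20 (88.7 ± 17.5), ZT8 (92.7 ± 17.1), ZT0 (96.5 ± 33.0) and ZT12, with each step smaller than the larger SD of the 2 groups. Aged Ccl5 at ZT24 was above ZT0 in every library, as for Gzmk.

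Eomes, the T-box factor that directs effector and memory programmes of CD8 T cells and natural killer (NK) cells, was at 0 in 10 young libraries and in no aged one. Its young values had a median of 2.00 and a highest value of 19.4, and its aged values ran from 1.77 over 11.5 to 81.6. The 3 young ZT0 libraries were all at 0 and the aged ones at 13.5, 5.45 and 18.3. The log2 difference was 2.30 ± 0.44 (SE), and 2.12 ± 0.38 (SE) without aged ZT12 replicate 1. Nkg7, a membrane protein of cytotoxic granules, ran from 4.04 over 15.8 to 33.7 in the young and in the aged its median was 31.5 and its highest value 288. Its log2 difference was 1.22 ± 0.23 (SE), and 1.11 ± 0.21 (SE) without that library. For Nkg7, 8 aged libraries lay above the highest young one, and for Eomes 5.

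The CD8 coreceptor chains were higher in the aged on average but overlapped between the ages at most times. Cd8a ran from 0 over 4.33 to 15.6 in the young and from 2.18 over 14.2 to 125 in the aged. For Cd8b1 the values were 0, 7.17 and 32.9, and 3.27, 25.1 and 277, in the same order. Log2 differences were 1.77 ± 0.41 (SE) for Cd8a and 1.82 ± 0.41 (SE) for Cd8b1, and 1.65 and 1.66 without aged ZT12 replicate 1. In 9 aged libraries each gene was above its highest young value.

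The CD3 chains, which every T cell carries, had smaller log2 differences by age than Gzmk, Eomes, Ccl5 and the CD8 chains, although the difference between genes was not tested. Cd3d ran from 2.95 over 21.6 to 39.8 in the young and from 8.72 over 34.9 to 299 in the aged, with a log2 difference of 1.03 ± 0.27 (SE) and 0.89 ± 0.25 without aged ZT12 replicate 1. Cd3e ran from 0 over 6.92 to 20.8 and from 0 over 11.5 to 95.7, with 0.78 ± 0.49 (SE) and 0.61 ± 0.46 without it. Cd3g ran from 0 over 6.03 to 18.6 in the young and from 0 over 11.3 to 42.2 in the aged, with 0.83 ± 0.37 (SE) and 0.75 ± 0.37 without it. Both ages overlapped for each CD3 chain over the day, and 6 aged libraries for Cd3d and 3 each for Cd3e and Cd3g lay above the highest young one.

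**Figure D2:**
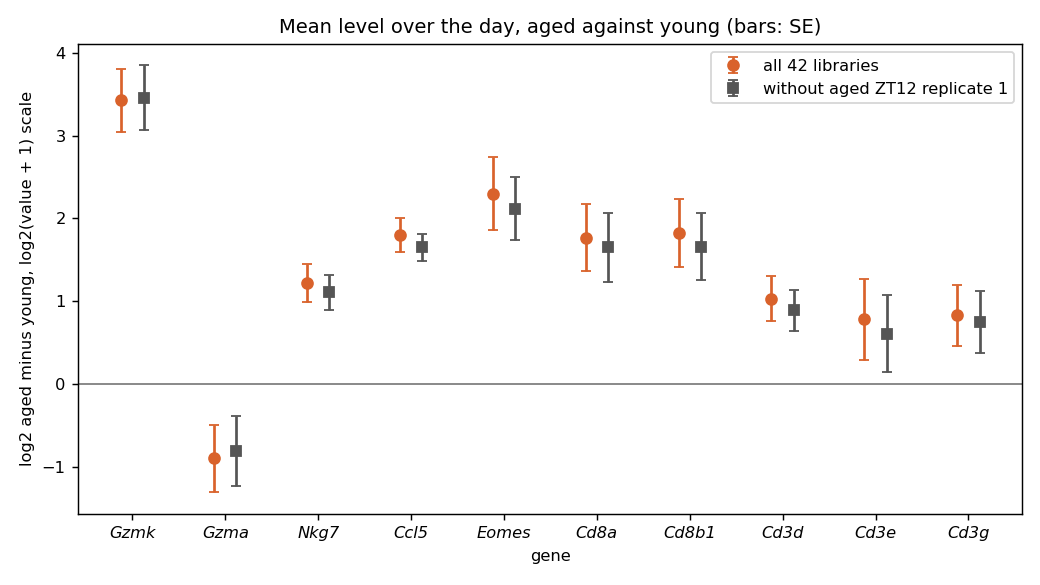
Log2 aged minus young of the mean level over the 7 times, on the scale log2(value + 1), for each of the 10 genes with its SE, from all 42 libraries (circles) and without aged ZT12 replicate 1 (squares). Gzmk is highest at 3.43, Gzma lies below 0 at -0.90, and leaving out the library moves no gene across 0.

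A mean of at least 10 over all libraries was needed for a gene to enter the fit across genes, and 8 of the 10 reached it. Gzma and Cd3g did not. Gzmk, Eomes, Cd8a and Cd3e reached it only through the aged libraries, since their young means were below 10. Limma called 7 of the 8 higher in the aged at a Benjamini-Hochberg adjusted p under 0.05, all but Cd3e, against 12.0% of the 12086 genes tested. Since the genes were chosen with this contrast known, nothing is read from that count. Without aged ZT12 replicate 1, Eomes and Cd3e also missed the filter, and 6 of 6 were called. Groups of 3 that did not overlap, aged higher, were found for 1 of the 10 genes at ZT0 (7.79% of all genes tested), 5 at ZT4 (9.42%), 2 at ZT8 (9.16%) and 4 at ZT12 (9.14%). There were 3 at ZT16 (7.26%), 3 at ZT20 (9.71%) and 8 at ZT24 (9.23%). With a pseudocount of 5 in place of 1 the log2 difference of Gzmk was 1.90, of Eomes 1.27 and of Cd8a 1.10, while DESeq2 gave 4.55 for Gzmk.

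Ratios between the genes also differed between the ages on average. Per Cd3d, a ratio of mean rescaled reads that compares each gene with the same T cell chain, Gzmk stood at 0.0603 in the young and 0.428 in the aged, and 0.577 in the aged without aged ZT12 replicate 1. Ccl5 per Cd3d was 3.88 in the young and 7.23 in the aged (7.03 without that library), and Eomes per Cd3d 0.156 and 0.359 (0.394). Cd8b1 per Cd3d was 0.538 and 0.819 (0.776), and Nkg7 per Cd3d 0.809 and 1.02 (1.04). Cd3e per Cd3d was nearly the same at the 2 ages, 0.331 and 0.327 (0.330), and that of Lck, a kinase that docks on CD4 and CD8, was 2.01 and 1.68 (1.97). Cd3g per Cd3d was 0.320 and 0.247 (0.289), and Trac per Cd3d 0.618 and 0.491 (0.600). In aged ZT12 replicate 1 alone these were 0.141 and 0.219, and without it Trac per Cd3d was near the young value. Cd4 per Cd3d was 0.734 and 0.215 (0.291), so Cd8b1 per Cd4 was 0.732 in the young and 3.80 in the aged (2.67). These ratios are of means over 21 libraries and carry no test.

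A fit with Cd3d as a covariate, chosen after seeing the data, gave log2 differences of 3.29 for Gzmk, 1.79 for Eomes, 1.25 for Cd8b1, 1.23 for Cd8a, 1.20 for Ccl5 and 0.90 for Nkg7. For Cd3e it gave 0.03 and for Cd3g -0.07, which had been 0.83 without the covariate. Cd3d rests on few reads per library, so such a fit takes out its part only incompletely.

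**Figure D3:**
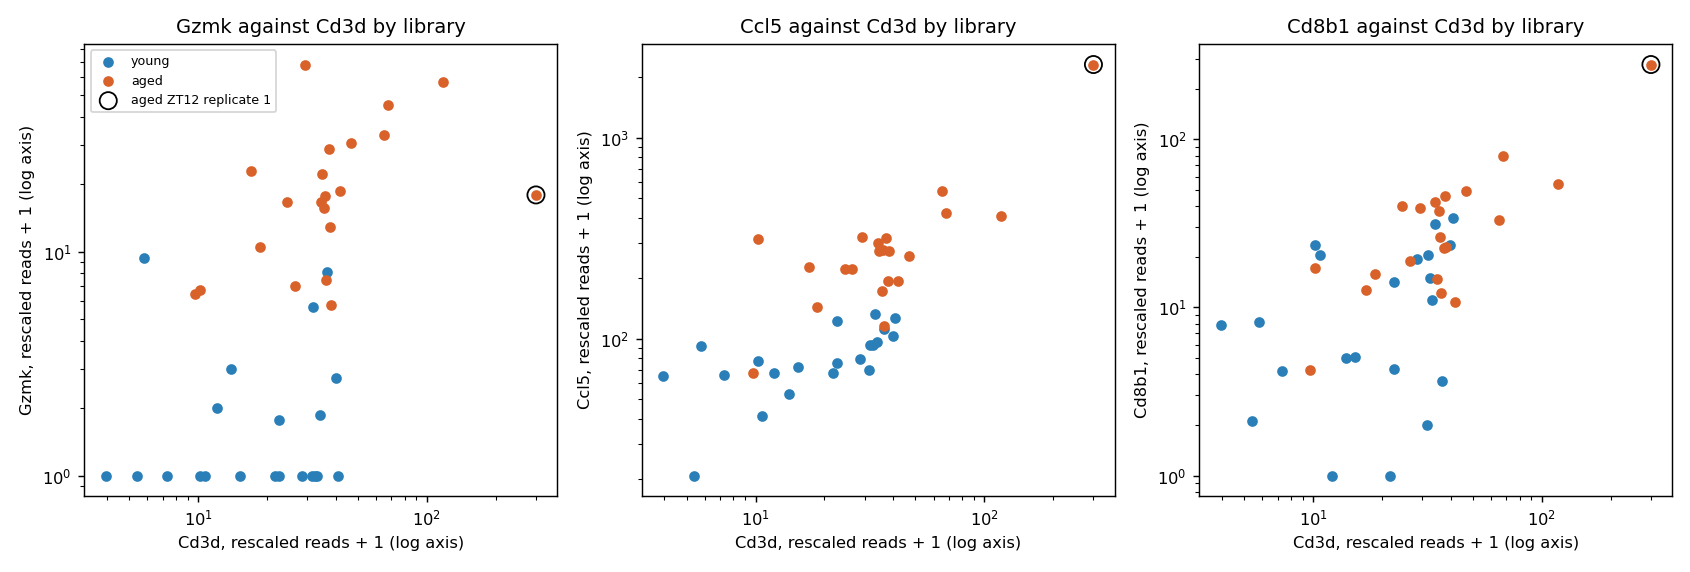
Gzmk, Ccl5 and Cd8b1 against Cd3d, each as rescaled reads + 1 on log axes, with 1 point per library, young in blue, aged in orange and aged ZT12 replicate 1 ringed. Aged Gzmk lies above most young values at like Cd3d, while the ringed library has the highest Cd3d (299) with a Gzmk of 16.9, rank 10 of the 21 aged libraries.

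Aged ZT12 replicate 1 was rich in many T cell and some NK cell transcripts without being rich in Gzmk. It held 2315 rescaled reads of Ccl5, 299 of Cd3d, 288 of Nkg7, 277 of Cd8b1, 125 of Cd8a, 95.7 of Cd3e, 81.6 of Eomes and 42.2 of Cd3g. The highest of the other 20 aged libraries were 543, 117, 115, 78.6, 39.6, 45.6, 73.2 and 24.7, in the same order. Gzmk was 16.9 there against a median of 16.2 in the other aged libraries, and Gzma was at 0. Its Gzmk per Cd3d was 0.0564, near the 0.0603 of the young mean, while Ccl5 per Cd3d was 7.73, near the 7.03 of the other aged libraries.

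Among other lists, 16 of 21 genes of the T cell receptor complex and its signalling and 10 of 16 NK cell and innate lymphoid genes were highest among the aged libraries there. That library was set apart by its T cell genes, so these counts only describe it. The share over all genes was not taken. Klrb1c, which encodes the NK cell receptor NK1.1, was at 113 against at most 17.2 elsewhere in the aged, and Il7r, the interleukin 7 receptor of memory T cells, at 1085 against 226. Of further NK cell markers, Klre1 was at 45.0 against at most 22.4, but Ncr1 was at 0, which was also its median in the other aged libraries. Cd4 was at 8.45 there, so Cd8b1 per Cd4 was 32.8. None of 15 B cell and none of 12 macrophage genes was highest in that library. Its 9650704 reads and its 16406 genes above 0 lay inside the range of the other aged libraries.

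**Figure D4:**
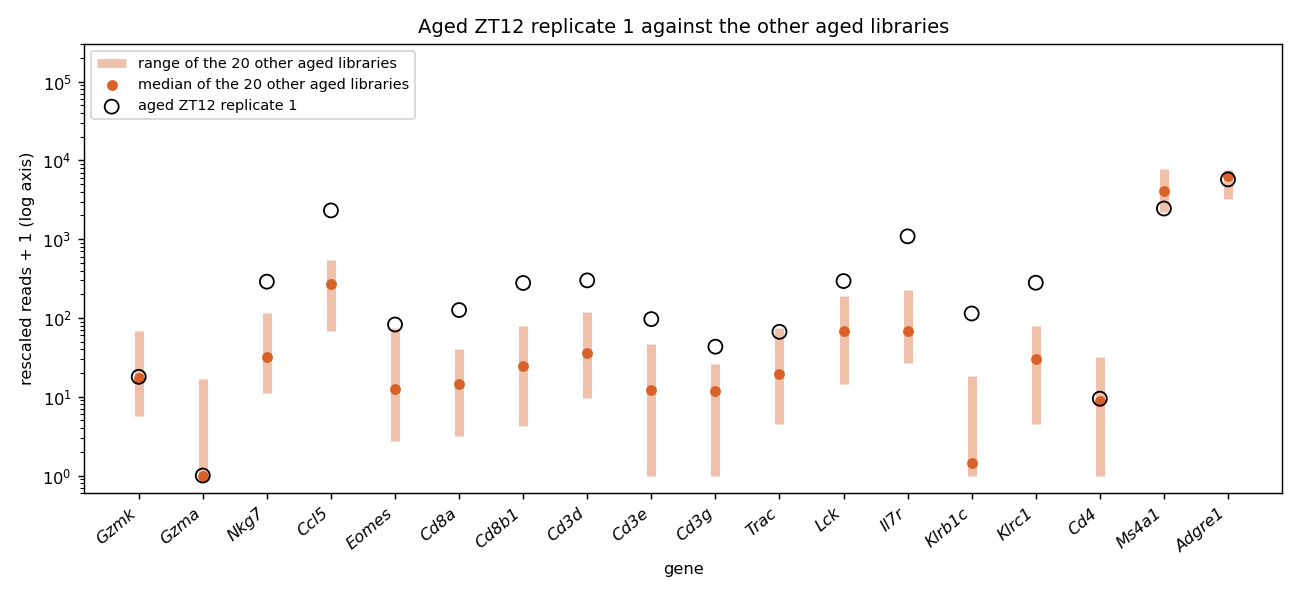
Rescaled reads + 1 (log axis) of the 10 genes and 8 marker genes in aged ZT12 replicate 1 (rings) beside the range (bars) and median (points) of the 20 other aged libraries. The ring lies above the bar for 8 of the 10 genes and inside it for Gzmk (16.9), Gzma (0), Trac, Cd4, Ms4a1 and Adgre1.

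The day was sampled every 4 h, and rhythm was not used to choose the genes, so it could be tested. A cosine and sine of 24 h were fitted by limma within each age on the authors' scale. In young samples 4 of the 10 genes reached the filter and 0 were called, with adjusted p from 0.634 to 0.808 against 3.62% of 12113 genes called. In aged samples 9 reached it and 0 were called, with adjusted p from 0.647 to 0.976 against 0.308% of 12016 genes. None was under 0.05 without adjustment in either age, where 17.2% of all genes in the young and 9.01% in the aged were. EdgeR's quasi-likelihood test called 0 of the same 4 and 9. DESeq2 called 0 too, but gave an adjusted p for only 1 and 2 of them.

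The fitted peak-to-trough fold of Ccl5 was 1.45 in the young (adjusted p = 0.634, limma) and 1.65 in the aged (adjusted p = 0.787, limma), where the adjusted p was 0.993 without aged ZT12 replicate 1. For aged Gzmk the fitted fold was 1.74 with a peak at ZT 21.1 (adjusted p = 0.836, limma), and young Gzmk was not tested for want of reads. The lowest p among the aged genes was that of Cd3g, with a fitted fold of 2.83 (unadjusted p = 0.125, limma). A difference in rhythm between the ages was tested by interaction terms, and 0 of 8 genes were called by limma, each at an adjusted p of 0.999. All 8 had an unadjusted p of 0.109 or more. Over all 12086 genes limma called 0 as well (0%), with 494 (4.09%) at an unadjusted p under 0.05, while edgeR called 4 and DESeq2 7. A p that misses the threshold does not show that levels were steady through the day.

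Relations between libraries of 1 age were not used to choose the genes either. Each gene was set against Cd3e on the scale log2(value + 1) over 21 libraries of 1 age, with Cd79a of B cells and Adgre1 of macrophages as contrasts, which made 22 relations. None was called after Benjamini-Hochberg adjustment. In the aged the strongest by both measures was Cd3d, with Pearson's r of 0.59 (permutation p = 0.00514, adjusted p = 0.0749) and Spearman's rho of 0.60 (permutation p = 0.00479, adjusted p = 0.0956). Eomes had r = 0.56 (permutation p = 0.00928, adjusted p = 0.0749) and rho = 0.46 (permutation p = 0.0381, adjusted p = 0.168), and Cd3g r = 0.50 (permutation p = 0.0199, adjusted p = 0.0749) and rho = 0.56 (permutation p = 0.00869, adjusted p = 0.0956). Ccl5 had r = 0.52 (permutation p = 0.0161, adjusted p = 0.0749) and rho = 0.53 (permutation p = 0.0146, adjusted p = 0.107). Gzmk had r = 0.23 (permutation p = 0.312, adjusted p = 0.421) and rho = 0.35 (permutation p = 0.122, adjusted p = 0.245).

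Over the aged libraries Cd79a had r = 0.07 and rho = 0.02 with Cd3e (permutation p = 0.762 and 0.945), and Adgre1 r = -0.26 and rho = -0.27 (permutation p = 0.252 and 0.235). Without the 2 libraries farthest from the median of Cd3e, r was 0.53 for Cd3d, 0.52 for Ccl5 and 0.26 for Gzmk. Leaving out aged ZT12 replicate 1 lowered r to 0.44 for Cd3d and 0.32 for Ccl5 and gave 0.25 for Gzmk. In the young the relation farthest from 0 was an inverse one, that of Cd8b1, with r = -0.50 (permutation p = 0.0204, adjusted p = 0.0749) and rho = -0.42 (permutation p = 0.0616, adjusted p = 0.185), and on deviations from the mean of each time its r was -0.71 and was called. In the young r with Cd3e was 0.18 for Cd3d, -0.16 for Ccl5 and 0.27 for Gzmk, at adjusted permutation p of 0.543, 0.543 and 0.412. The contrast genes had larger r there, 0.35 for Adgre1 and 0.32 for Cd79a, at adjusted permutation p of 0.254 and 0.315.

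Cd3d has more reads than Cd3e, and with Cd3d in its place, a choice made after seeing the data, Pearson's r called 7 of 9 genes in the aged and 2 in the young, and Spearman's rho 5 and 2. Aged Cd8a had r = 0.84 (permutation p = 3.00e-05, adjusted p = 0.000330) and rho = 0.80 (permutation p = 2.00e-05, adjusted p = 0.000440), and without aged ZT12 replicate 1 r = 0.76 (adjusted permutation p = 0.00110). Aged Ccl5 had r = 0.78 (permutation p = 0.000120, adjusted p = 0.000880) and rho = 0.51 (permutation p = 0.0199, adjusted p = 0.0546). Without that library Ccl5 had r = 0.60 (adjusted permutation p = 0.0193) and rho = 0.43 (adjusted permutation p = 0.142). Gzmk went the other way, from r = 0.48 (permutation p = 0.0260, adjusted p = 0.0573) and rho = 0.48 (adjusted permutation p = 0.0687) to r = 0.62 (adjusted permutation p = 0.0129) and rho = 0.50 (adjusted permutation p = 0.0829). Without it r called 5 of 9 in the aged, since Eomes, Nkg7 and Cd3e dropped out and Gzmk came in, and rho called only Cd8a.

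In the young the called relations with Cd3d were those of Ccl5, with r = 0.64 (permutation p = 0.00122, adjusted p = 0.00537) and rho = 0.79 (permutation p = 4.00e-05, adjusted p = 0.000440), and of Cd3g, with r = 0.62 (adjusted permutation p = 0.00899) and rho = 0.56 (adjusted permutation p = 0.0291). Without the 2 libraries farthest from the median of Cd3d, r was 0.57 for young Ccl5, 0.43 for aged Ccl5, 0.70 for aged Cd8a and 0.56 for aged Gzmk. A library's share of T cell RNA and its depth are common to all genes set against each other here.

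The genes whose aged profile was most like that of Ccl5, by Pearson's r over 21 aged libraries among 12015 genes, were Il7r (0.88), Il2rb (0.86), Gab3 (0.86), Ms4a4b (0.86), Trbc1 (0.83) and Trbc2 (0.83). Without aged ZT12 replicate 1 these were 0.74, 0.70, 0.70, 0.73, 0.82 and 0.84, and Trbc2, a constant segment of the T cell receptor beta chain, was then first of all genes. Most like Gzmk were Smad7 (0.66), Cenpt (0.63), Capn10 (0.63), Trbc2 (0.62), Cd28 (0.61) and Tspan18 (0.60), with 0.68, 0.65, 0.63, 0.68, 0.69 and 0.61 without that library. Ccl5 itself was rank 184 by likeness to Gzmk (r = 0.44) and rank 11 without the library (r = 0.63). Both lists were picked as the highest among 12015 genes and carry no test. With so many genes ranked over 21 libraries, high values of r can also arise without a relation.

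**Figure D5:**
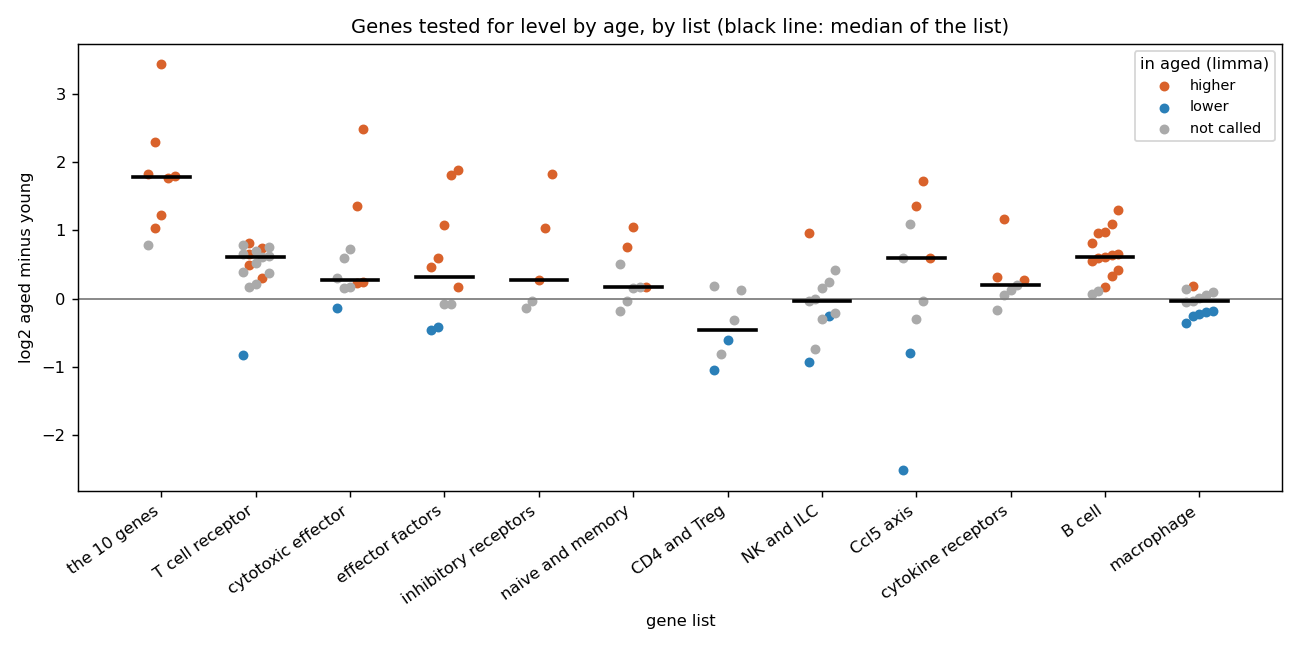
Log2 aged minus young of each gene tested, in 12 gene lists, with genes called higher in orange, lower in blue and not called in grey, and the median of each list as a black line. The median is 1.79 for the 8 tested of the 10 genes. It is 0.61 for the T cell receptor list and -0.45 for the CD4 and regulatory T cell list. The 10 genes were chosen with this contrast known. The filter left out Gzma (-0.90) and Cd3g (0.83), and Gzmk, Eomes, Cd8a and Cd3e passed it only through the aged libraries. The 1.79 is therefore a description and is not to be ranked against the other medians.

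Other T cell genes were compared by age over all genes tested, where the median log2 difference was 0.00, 12.0% were called higher and 11.7% lower by limma. These lists, and those of the following paragraphs, were also chosen with earlier results of these data known. Their counts and adjusted p are therefore a description and no independent support. Of 17 tested genes of the T cell receptor complex and its signalling, limma called 5 higher and 1 lower and edgeR 8 higher and none lower, with a median of 0.61. Lck rose by 0.82 ± 0.22 (SE, adjusted p = 0.00410), Cd5, a brake on receptor signalling, by 0.74 ± 0.20 (adjusted p = 0.00385) and the adhesion receptor Cd2 by 0.30 ± 0.08 (adjusted p = 0.00562). Cd2 had means of 820.4 and 1038, far above the CD3 chains. In aged ZT12 replicate 1 it was at 1052, near the median of 995 in the other aged libraries. The part of other cells in Cd2 and Cd5 was not tested. Cd28, the costimulatory receptor that memory cells can lose, fell by 0.83 on the log2 scale (SE 0.27, adjusted p = 0.0200) by limma and was not called by edgeR (adjusted p = 0.0764). The defining chain Trac was at means of 12.9 and 24.5 and was not called by limma (0.78 ± 0.30, adjusted p = 0.0569) but called higher by edgeR (log2 difference 1.01, adjusted p = 0.0116), as were Cd247 and Lat. Without aged ZT12 replicate 1, 4 of 16 rose, 1 fell and the median was 0.46.

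Of 10 tested cytotoxic effector genes 4 rose and 1 fell, with a median of 0.28. Of the 4, Serpinb6b and Gzmm reached the filter only through the aged libraries, so their calls are not independent of it. Serpinb6b, a serine protease inhibitor, had means of 6.26 and 33.5 (log2 difference 2.49 ± 0.40, SE), and Gzmm, granzyme M, of 6.23 and 24.8 (1.36 ± 0.38). Aged ZT12 replicate 1 held 240.2 of Gzmm, and without it Gzmm missed the filter at a log2 difference of 1.14. Unc13d, a priming factor of granule release, rose by 0.25 ± 0.08 (adjusted p = 0.0157), and Lamp1, a lysosomal protein abundant in macrophages, fell by 0.14 on the log2 scale (adjusted p = 0.00578). Unc13d had means of 144 and 172, above the CD3 chains, and the part of other cells in it was not tested. Prf1 and Gzmb, perforin and granzyme B, the classical killing proteins, were not tested for want of reads. They were above 0 in 6 and 4 of 21 young and in 8 and 8 of 21 aged libraries, with means of 1.38 and 1.01 and of 2.71 and 2.51. They were named after their values were seen, as was Tbx21 below.

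Of 10 effector transcription factors 6 rose and 2 fell (5 and 1 without aged ZT12 replicate 1, 6 and 1 by edgeR), with a median of 0.32. Prdm1, which encodes Blimp-1, rose by 1.81 ± 0.15 (SE, adjusted p = 3.41e-12) from 79.0 to 292. In aged ZT12 replicate 1 Prdm1 was at 347, inside the range of the other aged libraries (median 245, highest 645). Which cells carried Prdm1 was not tested. Tox, a factor of chronically stimulated T cells, is among the 6 but reached the filter only through the aged libraries, with means of 4.65 and 19.6 (1.88 ± 0.39). Ikzf3 (0.60 ± 0.10, adjusted p = 8.45e-06) and Id2 (0.46 ± 0.09, adjusted p = 0.000119) rose as well, and both are also expressed in other leukocytes. Tbx21, the T-box factor T-bet, rose by 1.08 ± 0.25 (adjusted p = 0.00121), and by 0.93 without that library. Of 5 tested inhibitory and residency receptors 3 rose, with a median of 0.28. These were Ctla4 (1.83 ± 0.21, adjusted p = 9.25e-09, 31.7 to 118), the chemokine receptor Cxcr6 (1.04 ± 0.32, adjusted p = 0.0130) and Cd244a (0.28 ± 0.07, adjusted p = 0.00281). In aged ZT12 replicate 1 Ctla4 was at 60.1, below the median of 114 in the other aged libraries. Cxcr6 was at 136 there, and its difference was 0.88 without that library. Of 8 naive and memory genes 3 rose, with a median of 0.17, namely Satb1 (1.05 ± 0.17, adjusted p = 4.44e-06), Il7r (0.76 ± 0.24, adjusted p = 0.0190) and Klf2 (0.17 ± 0.04, adjusted p = 0.00176). Without aged ZT12 replicate 1 the differences were 0.99 for Satb1, 0.59 for Il7r and 0.16 for Klf2. Klf2 had means of 8654 and 9692 and Cd244a of 607 and 746, far above the CD3 chains. The part of other cells in these 2 genes was not tested.

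None of 6 tested CD4 and regulatory T cell genes rose and 2 fell, with a median of -0.45. Ikzf2, which encodes Helios, fell by 0.60 on the log2 scale (SE 0.13, adjusted p = 0.000515), and Il2ra, the interleukin 2 receptor alpha chain, by 1.05 (SE 0.36, adjusted p = 0.0281) by limma, though edgeR did not call Il2ra (adjusted p = 0.0625). Cd4 was at means of 15.4 and 10.7 and was not called (-0.81 ± 0.36, adjusted p = 0.104). Foxp3 was above 0 in 7 young and 3 aged libraries.

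Of the cells other than T cells that could carry these genes, NK cells and innate lymphoid cells gave 1 gene that rose and 2 that fell among 11 tested, with a median of -0.03. Klrc1, which encodes the receptor NKG2A of NK and CD8 T cells, rose by 0.96 ± 0.32 (SE, adjusted p = 0.0233). Klrc1 was at 279 in aged ZT12 replicate 1, without which the difference was 0.78 (adjusted p = 0.0465, limma). Il1rl1, the interleukin 33 receptor, fell by 0.92 on the log2 scale (SE 0.12, adjusted p = 1.21e-07) and Tyrobp, an adaptor also abundant in macrophages, by 0.25 (adjusted p = 0.000191). The NK cell receptor gene Ncr1 was above 0 in 8 young libraries and 1 aged library, and Klrb1c in 15 and 11. For gamma delta T cells, Trdc was above 0 in 8 and 9 libraries, and 3 constant genes of the gamma chain were not matched.

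B cell genes moved with age as well, 13 of 15 higher and none lower, with a median of 0.61. Their summed level ran from 15239 over 20392 to 26875 in the young and from 18002 over 31773 to 55725 in the aged. The summed level of the 21 T cell receptor genes, most of it Cd2, ran from 967 over 1282 to 1569 and from 865 over 1585 to 3512. Of 12 macrophage genes 1 was higher and 5 lower, with a median of -0.04. The part of B cells, or of other cells in the harvest, in the values of the 10 genes and of the other gene lists was not tested.

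In the list of chemokine genes around Ccl5, Cxcl9 and Cxcl16 rose. Ccr3, a receptor of granulocytes, fell by 2.51 on the log2 scale (SE 0.29, adjusted p = 1.25e-08) from 114 to 27.4. Ccr1 was at 959.9 and 945 (-0.04 ± 0.07, adjusted p = 0.771). Cxcr3, a receptor of activated T cells, had means of 6.83 and 20.6 (1.36 ± 0.40, SE) and reached the filter only through the aged libraries. It was at 109.8 in aged ZT12 replicate 1, without which the difference was 1.24. Its ligand Cxcl9 rose by 1.72 ± 0.51 (adjusted p = 0.0116). Cxcl16, the ligand of Cxcr6, rose by 0.59 ± 0.09 (adjusted p = 2.49e-06) from 192 to 288. Among 7 tested cytokine and protease receptor genes 3 rose and none fell, with a median of 0.20, namely Il21r (0.31 ± 0.11, adjusted p = 0.0284), Il2rg (0.27 ± 0.06, adjusted p = 0.000286) and F2r, the thrombin receptor. Il2rg had means of 961 and 1168, and which cells carried it was not tested. F2r reached the filter only through the aged libraries, with means of 8.32 and 24.3 (1.16 ± 0.36) and a value of 199 in aged ZT12 replicate 1, without which the difference was 0.97. Ccr1 and Cxcl9 were named after their values were seen.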

How the data were processed

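Per the labels' protocols, cells were lysed in Trizol, RNA was purified on columns and 3' end libraries were made with a Lexogen QuantSeq kit. The tools STAR and DESeq2 and the build mm10 appear, with no versions, per the submitters' processing notes. For the counter, the strand setting and the annotation, the sources used here name nothing. The authors deposited 1 table per age of a normalized signal per gene, in which each library's values are whole multiples of its smallest value above 0. That step recovered whole reads in 100.0% of values (tolerance 0.001). Because each age had been normalized on its own, the recovered reads of both ages were put on a joint scale with median-of-ratios size factors over 42 libraries.

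Levels were compared by limma-trend (limma 3.58.1, R 4.3.3) on log2(value + 1) for genes with a mean of at least 10, with 14 group means and a contrast of the mean over the 7 aged and 7 young groups. Rhythms were tested on the deposited signal of each age with a cosine and a sine of 24 h, and their difference by interaction terms on the rescaled reads. Adjusted p-values are Benjamini-Hochberg over all genes tested, at 0.05. Relations used 100000 permutations, 2-sided. EdgeR 4.0.16 and DESeq2 1.42.0 on the recovered reads were run as alternatives. Others changed the pseudocount, filter, scaling or time points, added a replicate block, or left out each library. Tests were also run on simulated counts of genes with a mean of at least 10. These had the same spread at both ages and no library set apart. In the data 66.3% of genes had a larger SD within groups in the aged, so that check does not cover this. The reads carry no molecular identifiers, so limits given for a count of 0 cover counting error only.

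The 10 genes and all gene lists were chosen with earlier results of these data known. Named are the 10 genes and the 6 genes most like Gzmk and like Ccl5, passing over Gm and Rik names. Up to 4 genes of lowest p in the level fit are named from each T cell, NK cell, chemokine and cytokine receptor list. The B cell and macrophage lists are given as counts. Lists of peritoneal macrophage, mast cell, neutrophil, dendritic cell, platelet and red cell genes were also fitted and are not described. Cell type markers and the genes of the relations were named beside them. The promoter tables give the RefSeq sequences. One result of the chemokine list is not reported here. No sample was left out of the main fits, and no 2 replicates agreed within sampling noise.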

Additional observations from a re-analysis of the deposited data

How the results depend on the processing

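The number of genes called different in level (2863) stayed within 1.5 times under all 13 alternatives (2122 to 3100) and with any library left out (2636 to 2994). Rhythmic genes numbered 438 in the young and 37 in the aged, and DESeq2 gave 696 and 91. Leaving out 1 library gave 322 to 504 and 26 to 45. For the difference in rhythm the count was 0, and it was 5 with a pseudocount of 0.5, 7 with a pseudocount of 5, 4 by edgeR and 7 by DESeq2, and 0 to 5 with a library left out. The cause was not tested. None of the 10 genes was called for rhythm or its difference under any alternative that gave an adjusted p. Genes related to Cd3e by Pearson's r numbered 0 at both ages. On deviations from the mean of each time they were 1 in the young (Cd8b1, inversely) and 2 in the aged, on log2(value + 5) 6 in the aged, with Cd3d in place of Cd3e 2 and 7, and with Cd3d and without aged ZT12 replicate 1 they were 2 and 5. The log2 difference of Cd3g turned to -0.07 with Cd3d as a covariate, and no other gene of the 10 changed sign. Same-numbered libraries of different groups did not deviate together on average (mean r -0.00197), so no pairing by number was seen over all groups. Pairing within part of the design was not tested. A replicate block gave 2836 genes for level, 387 and 37 rhythmic and 0 for the difference in rhythm. Few reads limit Gzmk, Gzma, Eomes and the CD3 and CD8 genes, of which 6 had young means below 10.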
